A study of Mus musculus with 12 samples.

Results

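The genes of major histocompatibility complex (MHC) class II and its invariant chain were followed in the mouse retina after laser injury: Cd74, H2-Aa, H2-Ab1, H2-Eb1, H2-DMa, H2-DMb1 and Ciita. These 7 genes were taken by symbol from tables of 54367 genes, and all 7 were found. The retinas came from wildtype C57BL/6 mice aged 8 to 12 weeks. In the laser group the right eye received 4 burns from a 532 nm laser with spots of 75 µm and 0.1 s, and in the control group the left eye of such mice received no laser. Poly(A) RNA was sequenced from laser retinas on day 3, control retinas on day 3, laser retinas on day 7 and control retinas on day 7, with 3 libraries per group and 12 in all. The series title places the study in the inflammatory stage of retinal angiogenesis. All mice carried the same genotype, and no transgene or drug other than the anaesthetic and pupil-dilating drops is named.

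The class II genes lie together on chromosome 17 (mm10, coordinates of the deposited tables). H2-DMa (ENSMUSG00000037649), the DM alpha chain, spans 34135182 to 34139101 on the plus strand, and H2-DMb1 (ENSMUSG00000079547), its beta chain partner, spans 34153072 to 34160230 on the plus strand. H2-Ab1 (ENSMUSG00000073421), the beta chain of the I-A molecule, spans 34263209 to 34269418 on the plus strand. H2-Aa (ENSMUSG00000036594), the I-A alpha chain, spans 34282744 to 34287827 on the minus strand. H2-Eb1 (ENSMUSG00000060586), the beta chain of the I-E molecule, spans 34305877 to 34316199 on the plus strand. Cd74 (ENSMUSG00000024610) lies apart on chromosome 18 from 60803848 to 60812646, and Ciita (ENSMUSG00000022504) on chromosome 16 from 10480059 to 10528418, both on the plus strand.

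Class II molecules are heterodimers of an alpha and a beta chain that carry peptides from endosomes to the cell surface, where CD4+ T cells read them. CD74, the invariant chain, holds new dimers in the endoplasmic reticulum, guides them to endosomes and blocks their groove until proteases degrade it, and the H2-DM dimer then helps to exchange its last fragment for peptide. Transcription of these genes depends on CIITA, a coactivator without DNA binding of its own, which is recruited to conserved X and Y boxes in their promoters. In a healthy retina class II is scarce, and microglia, macrophages and dendritic cells are the cells best known for it in inflamed neural tissue.

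Promoter sequence was available from RefSeq (GRCm38.p6) for 4 of the 7 genes, H2-Aa, H2-Eb1, H2-DMa and H2-DMb1, and the 250 bases before the start that RefSeq annotates were searched on both strands. That start lay 10 bases before the start given in the deposited tables for H2-Eb1, and 4 bases after it for H2-Aa and 119 bases after it for H2-DMb1. The RefSeq starts of the 2 H2-DMa windows lay 9664 and 12350 bases before the gene of the tables, so these windows are not described. The motifs were CCAAT, the core of the Y box, which reads ATTGG on the other strand, and ACNGATG, the end of the X box. CCAAT was present in 33.8% and ACNGATG in 8.31% of all 32851 windows of that length, so either motif alone is common. The windows of H2-Eb1 (chr17:34305617-34305866, plus strand) and H2-Aa (chr17:34287824-34288073, minus strand) are printed because these genes rose most among the chromosome 17 members on day 7. That of H2-Eb2 (chr17:34325425-34325674, plus strand), a neighbouring beta chain gene outside the 7, is printed to set beside H2-Eb1. Capitals mark the motif matches, 5′ to 3′ on the strand of the gene.
H2-Eb1: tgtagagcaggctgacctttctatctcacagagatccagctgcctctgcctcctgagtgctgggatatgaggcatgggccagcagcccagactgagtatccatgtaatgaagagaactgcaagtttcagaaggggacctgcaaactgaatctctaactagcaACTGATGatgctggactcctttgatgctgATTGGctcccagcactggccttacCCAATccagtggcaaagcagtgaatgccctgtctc
H2-Aa: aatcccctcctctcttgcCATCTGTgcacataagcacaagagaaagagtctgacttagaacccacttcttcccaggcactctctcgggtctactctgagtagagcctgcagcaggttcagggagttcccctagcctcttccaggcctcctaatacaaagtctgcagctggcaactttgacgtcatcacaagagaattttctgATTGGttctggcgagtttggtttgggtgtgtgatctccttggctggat
H2-Eb2: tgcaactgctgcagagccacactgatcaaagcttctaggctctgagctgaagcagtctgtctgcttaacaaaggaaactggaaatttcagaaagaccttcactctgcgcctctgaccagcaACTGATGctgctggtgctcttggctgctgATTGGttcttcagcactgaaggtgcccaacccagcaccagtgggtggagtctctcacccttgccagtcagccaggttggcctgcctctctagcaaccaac
In H2-Eb1 the ACNGATG match began 88 bases before the start and ATTGG began 59 bases before it, and a CCAAT began 35 bases before it. In H2-Eb2 the same order was found, with ACNGATG at 129 and ATTGG at 100 bases, so that 29 bases separated the first letters in both windows. H2-Aa had ATTGG at 48 bases and an ACNGATG match on the other strand at 232 bases. H2-DMb1 had ACNGATG at 91 and ATTGG at 61 bases, which is 30 bases from first letter to first letter. The order seen in H2-Eb1, with ATTGG 29 or 30 bases after ACNGATG, occurred in 11 of the 32851 windows (0.0335%), a spacing chosen after these windows were seen. The 11 were H2-DMb1, H2-Eb1, H2-DMb2 and H2-Eb2 of class II, H2-D1, H2-Q4, H2-Q6, H2-Q7 and H2-M3 of class I, and BC051142 and Scaper. These matches are a description of the letters. H2-Eb2 had 1 read in day 3 laser library 1 and was listed at 0 in the other libraries, while H2-Eb1 had 3 to 373 reads in every library.

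Levels are the deposited values per gene, which the authors named TPM: they are scaled per exon length and library, but their sums per library, 953049 to 1045986, depart from the total that TPM has. Reads assigned to genes, recovered from the steps in the values, lay between 9282012 and 12515839 in a day 3 library and between 23886212 and 31092904 in a day 7 library. The labels do not state that libraries of a group came from separate mice or that equal numbers mark the 2 eyes of 1 mouse, so the p-values rest on the spread among the libraries alone, which may be technical. In bulk retina, fewer cells of a type and less RNA per cell cannot be told apart. Rod markers were high in every library, with summed levels between 9261 and 22914 in day 3 laser retinas and between 19267 and 24845 in day 3 controls. On day 7 the sums lay between 41323 and 49777 in laser retinas and between 53173 and 57426 in controls. Day 3 laser library 1 stood apart: it exceeded laser library 2 by 4.07-fold (H2-DMa) to 19.5-fold (H2-Aa) across the 7 genes, and its summed neutrophil markers were 1112, against 3.65 and 60.2 in laser libraries 2 and 3. Day 3 results of the tested class II genes and of some summed gene lists are therefore given with and without it. Other day 3 results include it.

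On day 3 the question was whether class II transcripts differed between laser and control retinas. All 6 genes that could be tested were higher in each laser library than in each control, where 27.7% of all genes tested did the same, and the sizes differed widely between laser libraries. None passed, with 0 of 6 called by limma on log2(value + 1), Benjamini-Hochberg adjusted over 16786 genes, against 0.143% of all genes called higher and 0.00596% called lower. At an unadjusted p under 0.05 there were 5 of 6, against 23% of all genes. The median log2 difference of the 6 was 1.92, against 0.16 over all genes tested. All 6 differences were above 0, as were 68.2% of all genes. A test needed a mean of 1 or more over the 6 libraries. H2-Aa and H2-Eb1 reached it only through laser libraries, with control means of 0.828 and 0.860.

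Cd74 stood at 148, 8.80 and 21.8 in day 3 laser libraries 1, 2 and 3, against 3.23, 3.32 and 2.63 in control libraries 1, 2 and 3. Every laser library was above every control, and library 1 held most of the laser sum, with 1032 reads against 84 and 174 in the other laser libraries. The log2 difference was 2.99 (SE 0.88, n = 3 per group, limma adjusted p = 0.121). H2-Aa followed the same order, at 85.3, 4.37 and 10.9 in laser libraries, against 0.543, 1.19 and 0.749 in controls. Control values of H2-Aa rested on 7, 15 and 7 reads, so its ratio is loosely fixed. Its log2 difference was 3.29 (SE 0.90, limma adjusted p = 0.112).

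H2-Ab1, which pairs with H2-Aa in the I-A molecule, was at 33.0, 4.16 and 4.72 in day 3 laser libraries, against 2.26, 3.79 and 2.92 in controls. Here laser library 2 lay only 1.10-fold above the highest control. The log2 difference was 1.35 (SE 0.68, limma adjusted p = 0.281). H2-Eb1 was at 38.7, 2.87 and 6.22 in laser libraries, against 0.390, 1.18 and 1.01 in controls, with 3, 9 and 6 reads behind the control values. All laser libraries were above the controls, by 2.43-fold at the nearest. The log2 difference was 2.50 (SE 0.77, limma adjusted p = 0.130).

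The peptide exchange factor showed smaller differences on day 3. H2-DMa was at 17.1, 4.21 and 5.04 in laser libraries, against 2.98, 2.81 and 2.65 in controls, a log2 difference of 1.12 (SE 0.44, limma adjusted p = 0.191). H2-DMb1 was at 11.95, 2.81 and 2.75 in laser libraries, against 1.23, 1.54 and 1.46 in controls, a log2 difference of 1.24 (SE 0.47, limma adjusted p = 0.175). Neither gene overlapped between groups, and laser libraries 2 and 3 were close to each other in both. H2-DMb1 has a near-identical neighbour, H2-DMb2, so reads of the 2 genes may have been split by the counting. H2-DMb2 had 26, 5 and 7 reads in day 3 laser libraries, against 3, 0 and 0 in controls.

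Without laser library 1 the day 3 differences were smaller and 2 of the 6 genes passed. Cd74 then averaged 15.3 in laser retinas, against 3.06 in controls (log2 difference 1.88, limma adjusted p = 0.0484), and H2-Aa averaged 7.63, against 0.828 (2.14, limma adjusted p = 0.0375). In the same fit without library 1, H2-Eb1 had a log2 difference of 1.53 (limma adjusted p = 0.0794), H2-DMb1 0.65 (0.133), H2-DMa 0.56 (0.155) and H2-Ab1 0.46 (0.310). Over all genes the fit without library 1 called 279 higher and 15 lower, where the fit with all 6 libraries called 24 and 1. With library 1 kept, 3 genes passed on day 3 in the joint fit of 12 libraries. The limma adjusted p there was 0.0326 for Cd74, 0.0267 for H2-Aa and 0.0433 for H2-Eb1. Over all genes the joint fit called 998 higher and 18 lower. It takes the same spread per gene for both days, while the laser SD of Cd74 was 76.9 on day 3 and 8.08 on day 7. Its day 3 p-values therefore rest partly on the day 7 libraries. Leaving out any other day 3 library gave 0 calls among the 6 genes. Median-of-ratios rescaling took the day 3 median of all genes to -0.02 and the share above 0 to 47.4%, quantile normalization took them to -0.07 and 43.1%, and the 6 genes stayed above 0 in both.

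**Figure D1:**
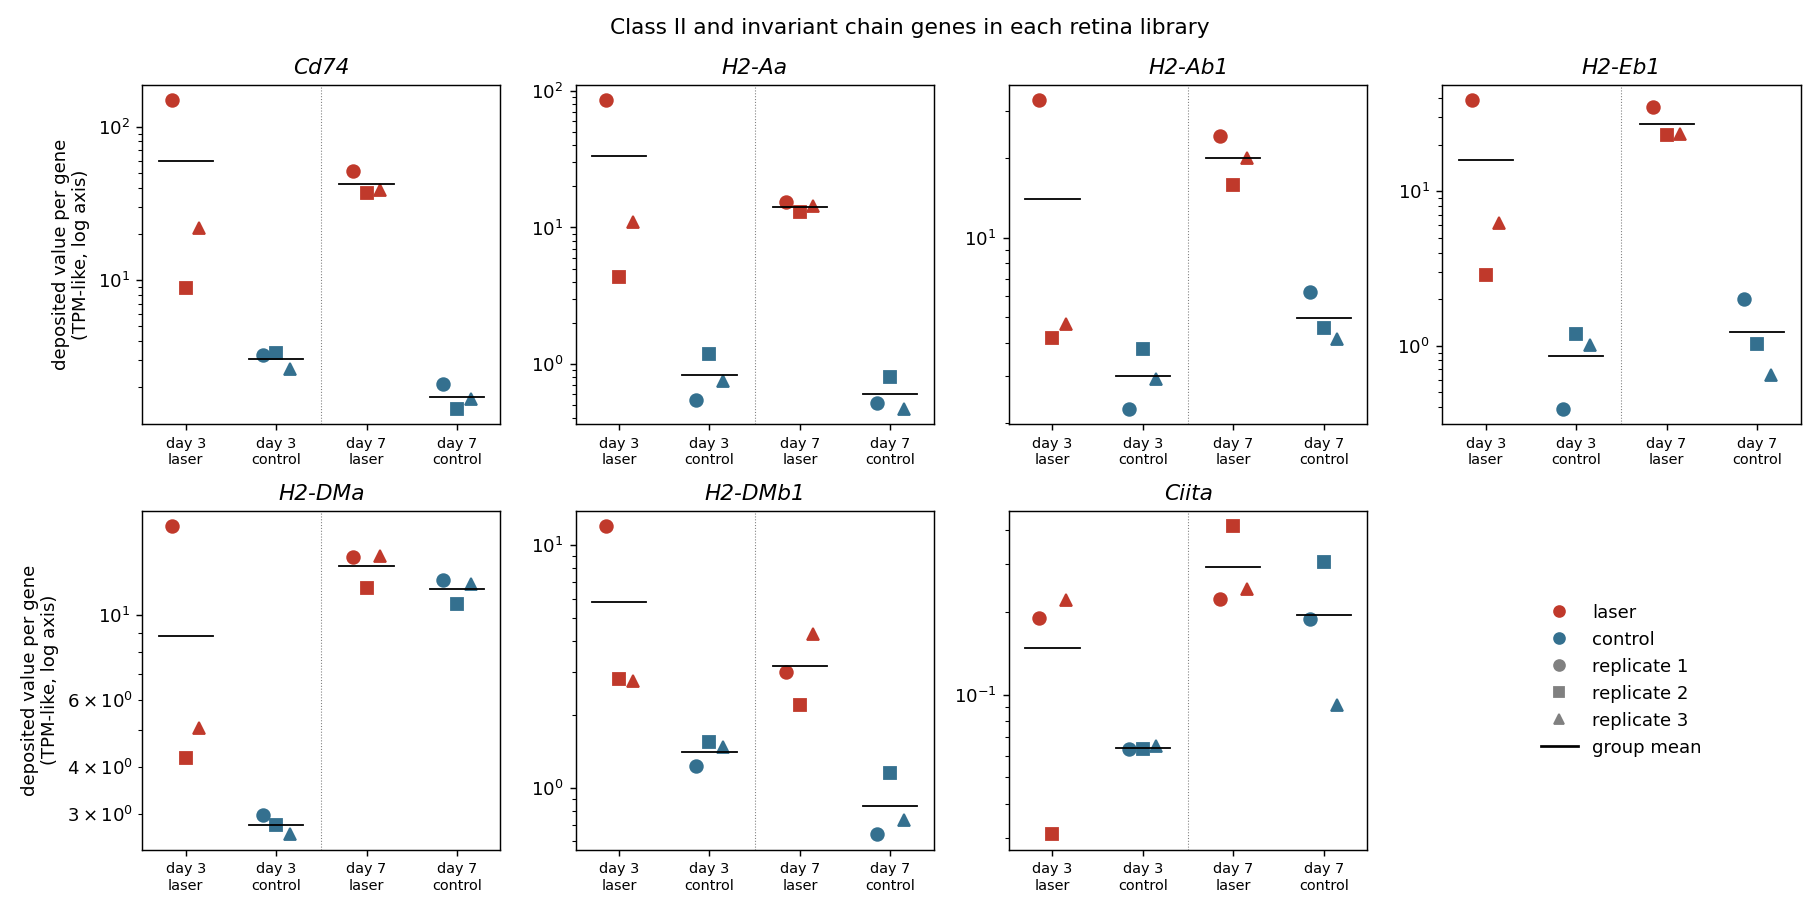
Deposited value (log axis) of each of the 7 genes in the 12 libraries, laser in red and control in blue, with symbols for the replicate number and a bar at the group mean. On day 3 laser replicate 1 lies far above the other laser libraries for Cd74 (148, against 8.80 and 21.8), while on day 7 the laser libraries of Cd74, H2-Aa and H2-Eb1 lie close together and above all controls.

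On day 7, 4 of the genes passed. Cd74, H2-Aa, H2-Eb1 and H2-Ab1 rose in laser retinas, out of 6 tested, against 0.237% of all 15592 genes called higher and 0.00641% called lower (limma, Benjamini-Hochberg adjusted). Cd74 had the smallest p of all genes and H2-Aa the next, H2-Eb1 ranked 7 and H2-Ab1 32. At an unadjusted p under 0.05 there were 5 of 6, against 3.94% of all genes, and the groups did not overlap for 5 of 6, against 6.78%. All 6 log2 differences were above 0, where 61.5% of all genes were, with a median of 2.53 for the 6 and 0.06 over all genes. H2-Aa and H2-DMb1 reached the mean of 1 needed for a test only through laser libraries, with control means of 0.599 and 0.842.

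Cd74 was at 51.6, 36.7 and 38.7 in day 7 laser libraries 1, 2 and 3, against 2.08, 1.45 and 1.68 in control libraries 1, 2 and 3. The lowest laser library was 17.6-fold above the highest control, and reads per library were 434 to 682 in laser retinas, against 19 to 26 in controls. The mean was 42.3 ± 8.08 in laser retinas and 1.74 ± 0.321 in controls (SD, n = 3 each), a ratio of 24.4 and a log2 difference of 3.98 (SE 0.21, limma adjusted p = 0.00309). H2-Aa was at 15.2, 13.03 and 14.4 in laser libraries, against 0.521, 0.806 and 0.471 in controls. Its laser libraries were the most even of the called genes, at 14.2 ± 1.11 (SD, n = 3), against 0.599 ± 0.181 in controls (SD, n = 3). The ratio was 23.7 and the log2 difference 3.25 (SE 0.22, limma adjusted p = 0.00444).

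H2-Ab1 was at 24.2, 15.8 and 19.9 in day 7 laser libraries, against 6.21, 4.56 and 4.13 in controls. No libraries overlapped, but the controls already held 53 to 95 reads, more than for Cd74. The ratio of means was 4.02 and the log2 difference 1.81 (SE 0.24, limma adjusted p = 0.0444). H2-Eb1 was at 35.0, 23.2 and 23.4 in laser libraries, against 1.99, 1.02 and 0.647 in controls. The lowest laser library was 11.6-fold above the highest control. The ratio of means was 22.3 and the log2 difference 3.69 (SE 0.30, limma adjusted p = 0.00785). In C57BL/6 mice the I-E molecule is known to be missing from the cell surface because the E alpha gene is not transcribed, and H2-Ea-ps, its locus, was listed at 0 in all 12 libraries. There, 3 reads would give a value between 0.430 and 0.584 on day 3 or between 0.282 and 0.366 on day 7.

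H2-DMa did not pass on day 7. It was at 14.2, 11.8 and 14.3 in laser libraries, against 12.4, 10.7 and 12.1 in controls, and laser library 2 lay below 2 of the controls. The log2 difference was 0.18 (SE 0.18, limma adjusted p = 1.000). H2-DMb1, its partner chain, was at 2.98, 2.20 and 4.31 in laser libraries, against 0.642, 1.15 and 0.738 in controls. The groups did not overlap, with 27 to 66 reads in laser libraries against 9 to 16 in controls, and the log2 difference of 1.15 did not pass (SE 0.28, limma adjusted p = 0.421). With library weights H2-DMb1 passed (adjusted p = 0.0447). H2-DMb2 had 6, 4 and 16 reads in laser libraries, against 0, 1 and 1 in controls.

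The day 7 calls leaned on single libraries. Without laser library 3 or control library 3 no gene of the whole table passed (limma, 0 called, with 441 and 388 at an unadjusted p under 0.05), and the adjusted p was 0.0596 and 0.0509 for Cd74, 0.0627 and 0.0509 for H2-Aa, 0.0781 and 0.0534 for H2-Eb1, and 0.348 and 0.305 for H2-Ab1. Without control library 2 H2-Eb1 (0.0511) and H2-Ab1 (0.219) did not pass. H2-Ab1 also did not pass without laser library 1 (0.164) or control library 1 (0.137). The log2 differences themselves stayed between 3.83 and 4.07 for Cd74, 3.20 and 3.34 for H2-Aa, 3.49 and 3.92 for H2-Eb1 and 1.67 and 1.96 for H2-Ab1 whichever library was left out.

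**Figure D2:**
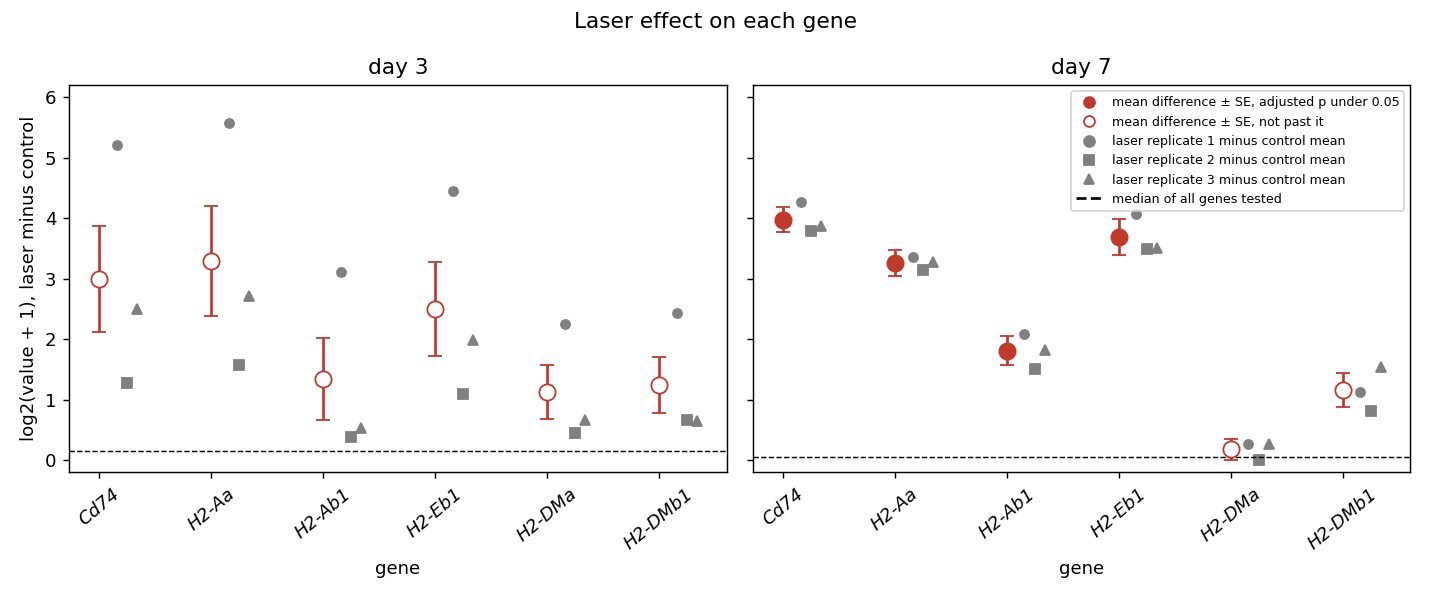
Laser minus control difference in log2(value + 1) for the 6 tested genes on day 3 and day 7, with the mean and its SE in red (filled where the adjusted p is under 0.05), each laser library minus the control mean in grey, and the median of all genes tested as a dashed line. On day 7 the filled points are Cd74 (3.98), H2-Aa (3.25), H2-Ab1 (1.81) and H2-Eb1 (3.69), and on day 3 the error bars are wider and no point is filled.

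Whether the laser effect differed between the days was tested as the interaction of day and laser, each effect taken within its own table. Day goes with table and depth here. Controls differed as well, with Glul averaging 315 on day 3 and 3466 on day 7, and H2-DMa 2.81 and 11.7. A difference between the days therefore cannot be told apart from a difference in processing. None of the 6 genes passed (limma, 0 of 6, and 0 at an unadjusted p under 0.05), and over all 17611 genes 0% were called in either direction, with 9.39% at an unadjusted p under 0.05. The day 7 effect minus the day 3 effect was 1.18 for H2-Eb1 (SE 0.91, limma adjusted p = 0.754), 0.99 for Cd74 (SE 0.99, adjusted p = 0.855) and 0.46 for H2-Ab1 (SE 0.79, adjusted p = 0.953). It was -0.03 for H2-Aa (SE 1.02, adjusted p = 0.998), -0.09 for H2-DMb1 (SE 0.57, adjusted p = 0.996) and -0.94 for H2-DMa (SE 0.51, adjusted p = 0.622). Without day 3 laser library 1 these became 2.15 for H2-Eb1 (SE 0.47, limma adjusted p = 0.351), 2.09 for Cd74 (SE 0.42, adjusted p = 0.295), 1.34 for H2-Ab1 (0.462), 1.11 for H2-Aa (0.636), 0.50 for H2-DMb1 (0.894) and -0.38 for H2-DMa (0.885). None of the 6 passed there either (limma, 3 of 17409 genes called, 1141 at an unadjusted p under 0.05). Leaving out each of the 12 libraries in turn gave 0.47 to 2.15 for H2-Eb1, 0.13 to 2.09 for Cd74 and -1.28 to -0.38 for H2-DMa.

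The make-up of the class II signal is given as shares and ratios per library, and their differences between laser and control retinas were not tested. The 7 genes summed to 27.3 to 334 in day 3 laser retinas and 10.7 to 13.9 in day 3 controls, and to 103 to 143 in day 7 laser retinas and 19.8 to 24.0 in day 7 controls. In day 7 controls H2-DMa alone held 51.6% to 60.8% of that sum and Cd74 7.25% to 8.67%. In day 7 laser retinas Cd74 held 33.6% to 36.0% and H2-DMa 9.90% to 12.4%. On day 3 the Cd74 share was 32.3% to 44.3% in laser retinas and 22.9% to 30.2% in controls, and the H2-DMa share 5.13% to 15.4% in laser retinas and 20.2% to 27.9% in controls.

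The order of levels per length was the same in each of the 3 day 7 laser libraries, with Cd74 first, then H2-Eb1, H2-Ab1, H2-Aa, H2-DMa, H2-DMb1 and Ciita. H2-Aa and H2-DMa are neighbours that overlap over these libraries, at 13.03 to 15.2 and 11.8 to 14.3. In the day 7 controls H2-DMa came first, at 11.7 ± 0.903 (SD, n = 3), then H2-Ab1 at 4.97 ± 1.10, and both stood above Cd74 in every control. Within I-A the alpha to beta ratio, H2-Aa over H2-Ab1, was 0.630 to 0.827 in day 7 laser retinas and 0.0838 to 0.177 in day 7 controls, and 1.05 to 2.59 in day 3 laser retinas and 0.241 to 0.314 in day 3 controls. H2-Eb1 over H2-Ab1 was 1.18 to 1.47 in day 7 laser retinas and 0.157 to 0.320 in controls, and 0.691 to 1.32 in day 3 laser retinas and 0.173 to 0.346 in controls. For each of these ratios laser and control libraries did not overlap on either day. H2-DMa over H2-DMb1 ran the other way on day 7, at 3.33 to 5.37 in laser retinas and 9.33 to 19.3 in controls.

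**Figure D3:**
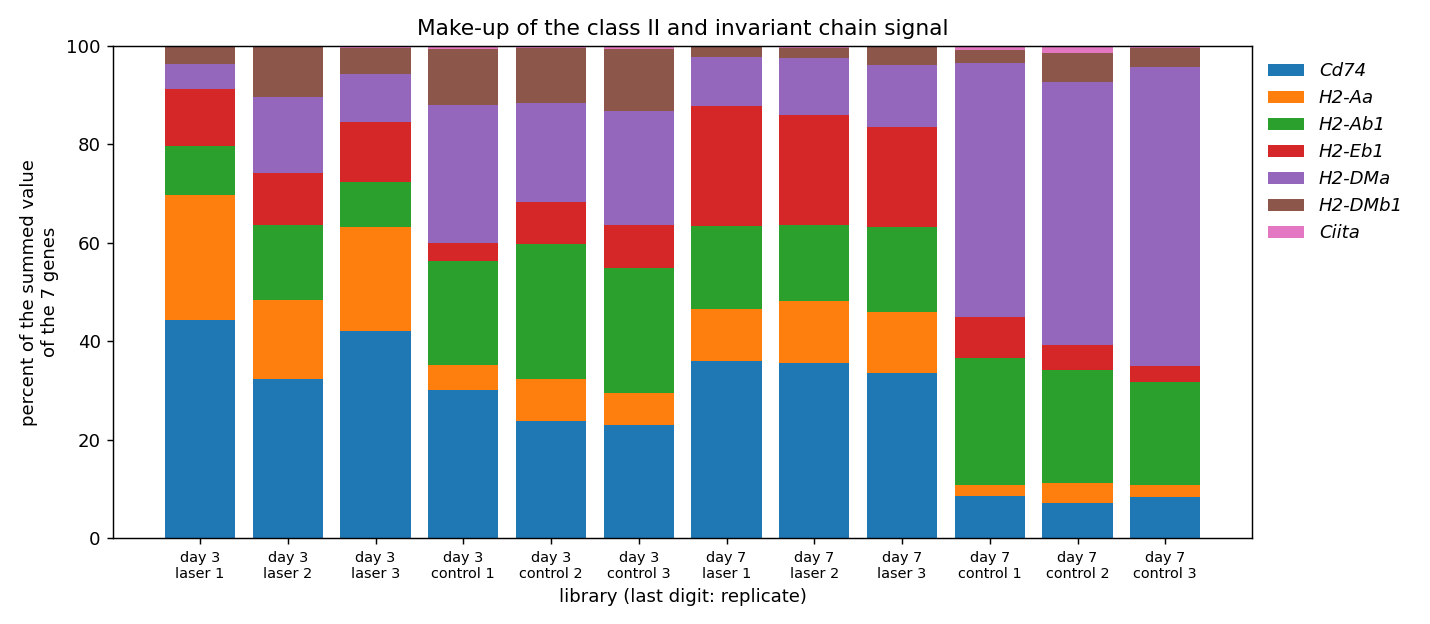
Share of each of the 7 genes in their summed value, in percent, for each of the 12 libraries, laser before control within each day. In day 7 controls H2-DMa (purple) takes 51.6% to 60.8% and in day 7 laser retinas 9.90% to 12.4%, while Cd74 (blue) takes 7.25% to 8.67% in those controls and 33.6% to 36.0% in those laser retinas.

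Ciita, the coactivator on which class II transcription depends, was too low to test, with a mean under 1 on both days. It had 9, 2 and 12 reads in day 3 laser libraries, against 4, 4 and 3 in controls, and 20, 33 and 24 reads in day 7 laser libraries, against 16, 30 and 7 in controls. Laser and control libraries overlapped on both days. The values were 0.191, 0.0310 and 0.222 in day 3 laser libraries, against 0.0637, 0.0633 and 0.0649 in controls, where 3 reads correspond to 0.0467 to 0.0635. On day 7 they were 0.224, 0.413 and 0.244 in laser libraries, against 0.190, 0.306 and 0.0916 in controls. In the fit without a filter on low values the log2 difference of Ciita was 0.11 on day 3 (limma adjusted p = 0.621) and 0.11 on day 7 (limma adjusted p = 1.000). A log2(value + 1) scale compresses values this low, and at this depth no change of Ciita was detected. The smallest change that could have been detected was not computed.

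The DNA-binding factors of class II promoters were measured at higher levels. Of 7 such genes 5 were tested on day 3 and 6 on day 7, and 0 passed on either day (limma, with 2 on day 3 and 0 on day 7 at an unadjusted p under 0.05), with median log2 differences of 0.32 and 0.07. Over all genes 23% on day 3 and 3.94% on day 7 had an unadjusted p under 0.05, with medians of 0.16 and 0.06. Nfyc, a subunit of the NF-Y factor that binds CCAAT, was at 30.8, 31.7 and 27.4 in day 3 laser libraries, against 18.8, 19.9 and 22.0 in controls (log2 difference 0.55, limma adjusted p = 0.0977). On day 7 its log2 difference was 0.09 (adjusted p = 1.000). Rfxank, a subunit of the X-box factor RFX, differed by 0.37 on day 3 (adjusted p = 0.185) and 0.24 on day 7 (adjusted p = 1.000). Creb1, which also binds near the X box, differed by 0.32 on day 3 (adjusted p = 0.394), and Rfx5, the DNA-binding RFX subunit, by 0.17 on day 7 (adjusted p = 1.000).

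Interferon gamma is the best known inducer of Ciita. Ifng had 1 read in day 3 laser library 1 and was listed at 0 in the other 11 libraries, where 3 reads would give 0.344 to 0.467 on day 3 or 0.225 to 0.293 on day 7. Of 9 genes of that pathway 7 were tested on day 3 and 8 on day 7, and 0 passed on either day (limma, with 4 on day 3 and 2 on day 7 at an unadjusted p under 0.05). On day 3, 7 were above 0 with a median of 0.72, and on day 7, 6 with a median of 0.23. Of all genes tested 68.2% were above 0 on day 3 and 61.5% on day 7. An unadjusted p under 0.05 was reached by 23% of all genes on day 3 and 3.94% on day 7. Irf1, a transcription factor induced by interferons, was at 78.3, 13.6 and 15.2 in day 3 laser libraries, against 4.27, 4.88 and 3.63 in controls (log2 difference 2.35, adjusted p = 0.103). On day 7 Irf1 was at 11.3, 11.2 and 12.0 in laser libraries, against 5.94, 5.78 and 5.88 in controls (0.86, adjusted p = 0.261), without overlap on either day. Irf8, a factor of the myeloid lineage, differed by 0.85 on day 7 (adjusted p = 0.689), and Ifngr1, a receptor chain, by 0.48 on day 3 (adjusted p = 0.138). Without laser library 1 the day 3 laser to control ratio of the summed pathway genes was 1.46, against 2.27 with it.

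Endosomal proteases and the reductase GILT prepare peptides and remove the invariant chain. All 7 such genes were tested and above 0 on both days, with medians of 0.72 on day 3 and 0.43 on day 7. Of all genes tested 68.2% were above 0 on day 3 and 61.5% on day 7. An unadjusted p under 0.05 was reached by 23% of all genes on day 3 and 3.94% on day 7. None passed (limma, 0 of 7, with 6 on day 3 and 4 on day 7 at an unadjusted p under 0.05). Without laser library 1 the day 3 laser to control ratio of their summed levels was 1.38, against 1.72 with it. Ctss, cathepsin S, which cleaves the invariant chain in antigen-presenting cells, was at 208, 66.7 and 96.5 in day 3 laser libraries, against 32.4, 28.8 and 31.3 in controls. On day 7 it was at 53.2, 111 and 73.3 in laser libraries, against 14.8, 26.0 and 18.0 in controls. Laser libraries lay above controls on both days, with log2 differences of 1.81 on day 3 (adjusted p = 0.0915) and 1.93 on day 7 (adjusted p = 0.104). Ctsl, cathepsin L, differed by 1.05 on day 3 (adjusted p = 0.130) and 0.54 on day 7 (adjusted p = 0.861). Lgmn, an asparagine-specific endopeptidase, differed by 0.69 on day 3 (adjusted p = 0.0977), and Ifi30, which encodes GILT, by 0.49 on day 7 (adjusted p = 1.000). Among 6 genes of costimulation and class II turnover 2 were tested on day 3 and 3 on day 7, and 0 passed (limma, with 1 on day 3 and 0 on day 7 at an unadjusted p under 0.05). Cd83, which stabilises surface class II, differed by 0.36 on day 3 and 0.27 on day 7, and March1, the ligase that removes it, by 0.15 and 0.02. Icosl, a costimulatory ligand, differed by 0.40 on day 7.

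None of 5 other class II loci, H2-DMb2, H2-Oa, H2-Ob, H2-Eb2 and H2-Ea-ps, reached the level for a test. The 181 kb from H2-DMa to H2-Eb1 hold 14 genes in the tables, 5 of the members and 9 others. Of these 9, 4 were tested on each day, and 0 passed on either (limma, with 4 on day 3 and 3 on day 7 at an unadjusted p under 0.05). Of all genes tested 23% on day 3 and 3.94% on day 7 had such a p. The 4 tested were Psmb8 and Psmb9, subunits of the immunoproteasome, and Tap1 and Tap2, the transporter that feeds peptides to class I. Psmb8 averaged 33.1 in day 3 laser retinas and 1.08 in day 3 controls (log2 difference 3.21, adjusted p = 0.103), and 9.19 in day 7 laser retinas and 3.20 in day 7 controls (1.28, adjusted p = 0.0922). Tap1 differed by 2.69 on day 3 (adjusted p = 0.132) and 1.05 on day 7 (adjusted p = 0.346), and Psmb9 by 2.82 and 0.94. Tap2 averaged 6.70 in day 3 laser retinas and 0.495 in day 3 controls (adjusted p = 0.120), and 12.7 in day 7 laser retinas and 9.45 in day 7 controls (log2 difference 0.39, adjusted p = 1.000). On day 7 the differences of these 4 neighbours were below those of Cd74, H2-Aa, H2-Ab1 and H2-Eb1, while on day 3 all 4 were above that of H2-Ab1 and that of Psmb8 was also above that of Cd74. These orders were not tested, and the day 3 values of the neighbours include laser library 1. The coordinates of Psmb9 and Tap1 overlap, so the counting may have split their reads.

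Markers of cell types known to carry class II were measured in the same libraries, and few of them passed. Of all genes tested 0.143% on day 3 and 0.237% on day 7 were called higher. Summed microglia markers were 85.3 to 103 in day 3 laser retinas and 40.4 to 43.7 in day 3 controls, with 1 of 10 tested called higher (Fcrls), and 129 to 171 in day 7 laser retinas and 68.5 to 73.3 in day 7 controls, with 2 of 9 called (Fcrls and Csf1r). P2ry12, a marker of resting microglia, had a laser to control ratio of means of 0.792 on day 3 (limma adjusted p = 0.585). On day 7 its ratio was 0.592, at means of 0.147 and 0.248, too low to test. Every other marker of this list had a ratio above 1 on both days, such as Tmem119 (2.93 and 1.34) and Cx3cr1 (2.09 and 2.40). For Siglech the day 3 ratio was only 1.09 and the log2 difference -0.01 (limma adjusted p = 0.990), with laser library 1 at 0.237, below every control. The 7 class II genes as a share of that microglia sum were 111%, 60.2% and 73.0% in day 7 laser libraries 1, 2 and 3, against 35.1%, 27.3% and 28.3% in controls. On day 3 the share was 323%, 31.9% and 53.5% in laser libraries, against 26.5%, 31.8% and 28.0% in controls, so laser library 2 was level with control library 2. Class II stood higher relative to microglia markers in every day 7 laser library than in every day 7 control, and on day 3 in laser libraries 1 and 3.

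Summed monocyte and macrophage markers were 39.9 to 783 in day 3 laser retinas and 6.99 to 11.5 in day 3 controls, and 81.2 to 114 in day 7 laser retinas and 11.5 to 21.3 in day 7 controls. Of this list 0 of 10 tested were called on day 3 (limma, 4 at an unadjusted p under 0.05) and 1 of 2 on day 7, Lyz2, a lysozyme that activated microglia also express. Of all genes tested on day 3, 23% had an unadjusted p under 0.05. Without Lyz2 the sums were 9.14 to 122 in day 3 laser retinas and 3.12 to 6.26 in day 3 controls, and on day 7 they overlapped, at 9.63 to 11.6 in laser retinas and 8.18 to 14.1 in controls. Fn1, which encodes fibronectin and was the other marker tested on day 7, had a log2 difference of -0.23 there (adjusted p = 1.000). Ccr2 and Ms4a4c, monocyte markers, were listed at 0 in the day 7 controls and were near 0 in day 7 laser libraries. There Ccr2 was at 0, 0 and 0.0454 and Ms4a4c at 0.120, 0.341 and 0.0561. Chil3 was listed at 0 in all day 7 libraries. Ms4a7 was too low to test but did not overlap, at 0.719, 0.562 and 0.479 in day 7 laser libraries, against 0.0507, 0 and 0 in controls. In the fit without a filter on low values its log2 difference was 0.64 (limma adjusted p = 0.181). Itga4 and S100a4, also too low to test, had day 7 ratios of means of 2.37 and 0.611. Summed dendritic cell markers were 1.55 to 15.1 in day 3 laser retinas and 2.03 to 2.22 in day 3 controls, and 7.77 to 9.31 in day 7 laser retinas and 4.13 to 5.72 in day 7 controls. After the filter on low values 1 of them was tested on day 3 and 2 on day 7, with 0 called and 0 at an unadjusted p under 0.05 (limma). The 2 markers tested on day 7, Flt3 and Zbtb46, had log2 differences of -0.15 and 0.09. Itgax, the integrin CD11c, was at 2.06, 1.38 and 2.36 in day 7 laser libraries, against 0.0223, 0.0212 and 0.105 in controls. Itgax had a mean under 1 and did not pass the filter, and Clec9a was listed at 0 in all day 7 libraries. Cd209a and Ccr7 were listed at 0 in the day 7 controls and did not pass the filter either. In day 7 laser libraries Cd209a was at 0.932, 0.534 and 0.367 and Ccr7 at 1.24, 0.408 and 0.194. In the fit without that filter Itgax had a day 7 log2 difference of 1.47 (limma unadjusted p = 0.000155, adjusted p = 0.119). The limma unadjusted p was 0.0021 for Cd209a, 0.0264 for Ccr7 and 0.0488 for Batf3. It was above 0.05 for Clec10a, Xcr1, Flt3 and Zbtb46. None of these markers passed, and 1081 of 27674 genes had an unadjusted p under 0.05 there.

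Lymphocyte markers were low. Summed B cell markers were 4.09 to 8.95 in day 3 laser retinas and 2.91 to 4.41 in day 3 controls, and 4.85 to 6.28 in day 7 laser retinas and 3.04 to 3.67 in day 7 controls, with Ms4a1 listed at 0 in all day 7 libraries. Summed T cell markers were 2.56 to 10.1 in day 3 laser retinas and 1.92 to 2.98 in day 3 controls, and 3.27 to 3.74 in day 7 laser retinas and 1.92 to 2.30 in day 7 controls, with Cd3g listed at 0 in all day 7 libraries. Of each list 1 marker was tested per day and 0 were called (limma), with 1 B cell marker, Ighm, at an unadjusted p under 0.05 on day 7. Border macrophage markers summed to 11.4 to 403 in day 3 laser retinas and 11.2 to 14.4 in day 3 controls, and to 3.11 to 7.98 in day 7 laser retinas and 3.54 to 6.15 in day 7 controls, with 0 of 3 and 0 of 1 tested at an unadjusted p under 0.05 (limma). Neutrophil markers summed to 3.65 to 1112 in day 3 laser retinas and 1.88 to 3.92 in day 3 controls, and to 2.62 to 3.97 in day 7 laser retinas and 0.838 to 1.48 in day 7 controls, and 0 of 4 on day 3 and 0 of 1 on day 7 were called (limma, with 1 on each day at an unadjusted p under 0.05). Of endothelial, Müller glia, rod and pigment epithelium markers 0 were called on either day (limma), with 1, 3, 1 and 1 on day 3 and 0, 1, 0 and 1 on day 7 at an unadjusted p under 0.05. Such a p was found for 23% of all genes tested on day 3 and 3.94% on day 7. Without laser library 1 the day 3 ratio of laser to control was 3.28 for the summed class II genes and 11.5 for neutrophils. It was 2.18 for microglia, 6.02 for monocytes and macrophages, 0.814 for dendritic cells, 1.26 for B cells and 1.24 for T cells. The part of each cell type in the class II differences was not tested.

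**Figure D4:**
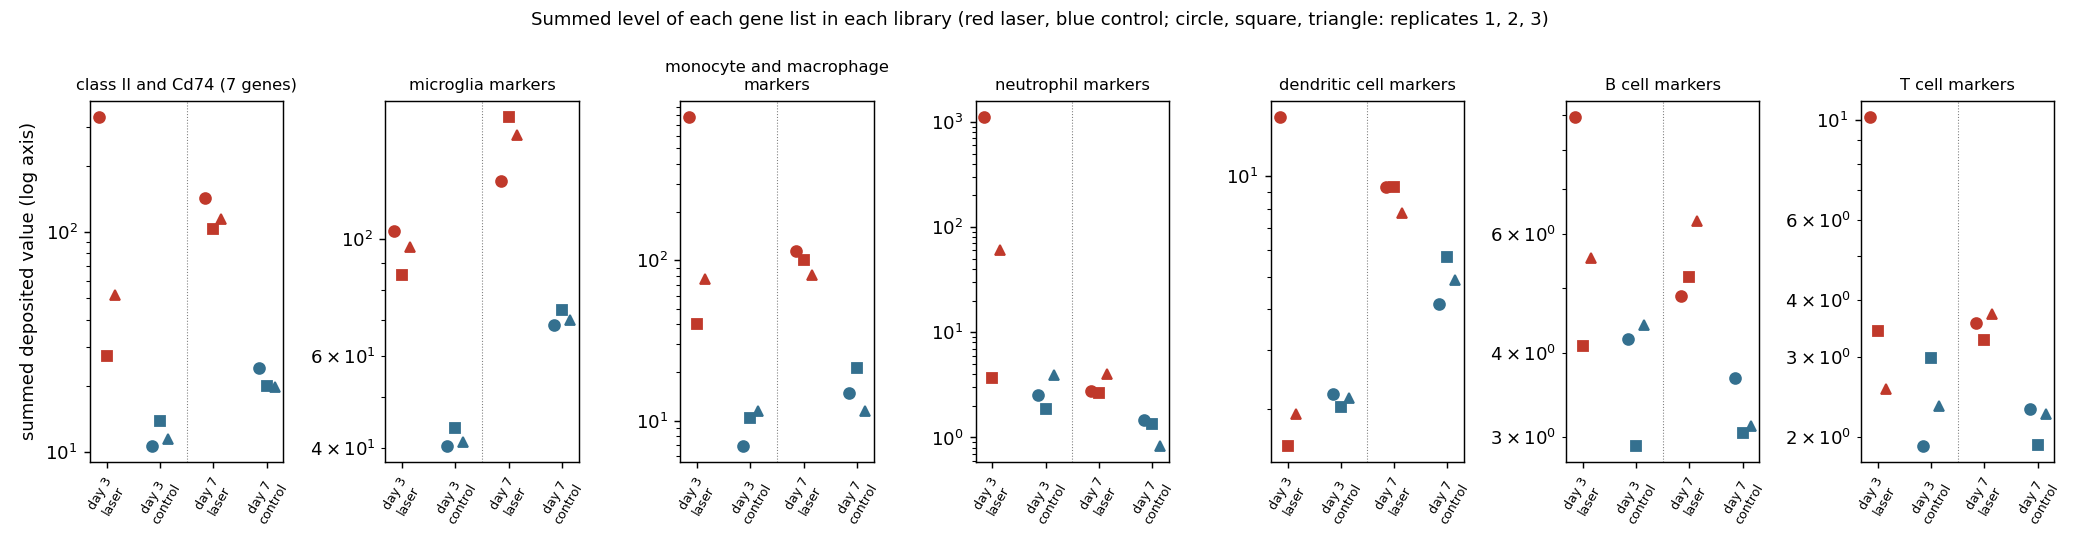
Summed deposited value (log axis) of the 7 class II genes and of 6 lists of cell type markers in the 12 libraries, laser in red and control in blue, with symbols for the replicate number. On day 7 the class II sum is 103 to 143 in laser retinas and 19.8 to 24.0 in controls, beside 129 to 171 and 68.5 to 73.3 for microglia markers, and laser replicate 1 is the highest day 3 library in every panel.

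Which genes shared the pattern of Cd74 was asked over the 12 libraries, by the root mean square difference in log2(value + 1) after the control mean of the day was taken off, among 12907 genes tested on both days. H2-Eb1 (0.374) and H2-Aa (0.429) were the nearest, ahead of every gene outside the members. The 8 nearest outside genes were Lyz2 (0.680), Bcl3, a nuclear partner of NF-kB (0.772), Fgf2os (0.914), Edn2, which encodes endothelin 2 (0.917), the predicted genes Gm37904 (0.924) and Gm16174 (0.978), Ifi27l2a, an interferon-inducible gene (0.985), and Serping1, the inhibitor of complement C1 (0.989). Lyz2 shares most of its sequence with Lyz1, and Fgf2os is antisense to Fgf2, so reads of either may belong to its partner. Lyz2 was at 661, 30.7 and 64.1 in day 3 laser libraries, against 3.86, 6.25 and 5.29 in controls, and at 105, 90.9 and 69.6 in day 7 laser libraries, against 4.63, 7.20 and 3.30 in controls. The other members were farther off, with H2-Ab1 at rank 41 (1.39), H2-DMb1 at rank 132 (1.73) and H2-DMa at rank 513 (2.16). This likeness is a description over libraries that share controls and depth, and carries no test.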

How the data were processed

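Poly(A) RNA of retina was sequenced from a directional library kit, per the labels' protocols, and groups and replicate numbers came from the sample titles. The authors deposited 1 table per day, whose values they named TPM and which are treated here as a signal. The submitters' processing notes name STAR 2.7.0, edgeR 3.28.0 and mm10 and give none of them a role. Not given in the sources used here are the way reads were counted, whether strand was used, and the annotation. The tests were written for TPM and kept for this signal. Multiplying by exon length and taking out a factor of 0.955 to 1.05, which cycles over 6 positions in the table, gave whole reads (within 0.05) for 99.7% to 99.8% of values under 20 reads per library. Exon lengths came from GENCODE M21, where 53681 of 54367 genes have the same start and end, and for most members from the values. Reads are printed to show depth, and values listed at 0 allow up to 3 reads, for counting error only. A total of 0 columns lacked a sample.

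The 2 tables were fitted separately by limma 3.58.1 under R 4.3.3, with lmFit and a trended eBayes, 2-sided tests, and log2(value + 1) as the response. Only genes averaging 1 or more over the libraries fitted were kept. This mean runs over laser and control libraries, so a gene can be kept through laser libraries alone. Most monocyte and neutrophil markers tested on day 3 were kept that way, such as Ccr2, with a control mean of 0. Counts of tested genes above 0 therefore lean towards genes that are high in 1 group. Benjamini-Hochberg adjustment ran over every gene tested, with a threshold of 0.05. This scale understates the change of low genes. The interaction of day and laser used all 12 libraries. Summaries were made in Python 3.11.15 with pandas 2.3.3 and NumPy 2.4.6, and figures with matplotlib 3.10.9. The fits were run on simulated data with the same noise for every gene and large changes planted in well-measured genes. That checks the code only and does not cover genes as low or libraries as uneven as those here. On day 7 deviations of equal-numbered laser and control libraries correlated by 0.485, 0.559 and 0.128. Laser library 3 correlated more with control library 1 (0.205). The numbers may thus pair libraries 1 and 2 there, but library 3 is unclear, and the labels state no pairing. The members and 16 other gene lists were chosen with earlier results of these data known. All members are named, from each pathway list the 3 genes with the smallest p per day, and the 8 genes most like Cd74. A gene that this rule named is not reported here. H2-Eb2, Psmb8, Psmb9, Tap1 and Tap2 were named after their values were seen. Alternatives were other pseudocounts (0.5 and 0.1), no filter, other scalings, library weights, a replicate block, a joint fit and leaving out each library.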

Additional observations from a re-analysis of the deposited data

How the results depend on the processing

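With 3 libraries per group, the count of calls depended on the fit while directions within a day did not: over 90 gene-by-setting fits each, 85 kept their side of the threshold on day 3 and 70 on day 7, and none reversed. In the joint fit of 12 libraries 3 genes passed on day 3 (Cd74, H2-Aa and H2-Eb1), and on day 7 there were 0, with adjusted p = 0.0716 for Cd74, 0.0689 for H2-Eb1, 0.226 for H2-Aa and 0.767 for H2-Ab1. The joint fit takes the same spread per gene for both days. The SE of Cd74 was thus 0.70 on each day, against 0.88 on day 3 and 0.21 on day 7 in the separate fits. Leaving out 1 library gave 0 to 2 calls on day 3, 0 to 4 on day 7 and 0 to 0 for the difference between the days. H2-Ab1 lost its day 7 call without the filter (adjusted p = 0.114), with median-of-ratios factors (0.112) and with quantile normalization (0.152). For the difference between the days library weights gave 1 call (H2-Eb1, adjusted p = 0.0338). The sign of that difference turned, uncalled, for H2-Aa to 0.0597 and 0.20 at pseudocounts of 0.5 and 0.1, 0.0562 with median-of-ratios factors, 0.0869 with quantile normalization and 0.98 with library weights. For H2-DMb1 it turned to 0.15 at a pseudocount of 0.1, 0.0193 and 0.0414 with the same scalings and 0.77 with weights. Leaving out 1 library gave -0.89 to 1.11 for H2-Aa, -0.0155 to 1.34 for H2-Ab1 and -0.39 to 0.50 for H2-DMb1.

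Over all genes the number called on day 3 was 25, and 0 without the filter (4614 at an unadjusted p under 0.05), 14 and 12 after the rescalings, 369 with weights and 1016 in the joint fit. On day 7 it was 38, and 13 without the filter, 24 after median-of-ratios rescaling, 22 in the joint fit and 114 with weights, and that rescaling took the share of genes above 0 to 41.9%. For the difference it was 0, and 28 without the filter and 1119 with weights. With the replicate number as a block the calls were 0 on day 3, 4 on day 7 (Cd74 0.00127, H2-Aa 0.0045, H2-Ab1 0.0155, H2-Eb1 0.00215) and 0 for the difference, so the block changed no call, although over all genes it gave 0 on day 3 (3491 at an unadjusted p under 0.05) and 53 on day 7. On day 3 equal-numbered libraries correlated by 0.0413, 0.0162 and 0.0766, and unequal-numbered ones by -0.0579 to 0.0142. Values this weak do not show whether equal numbers pair the libraries there. Undoing the cyclic factor, an alternative chosen after seeing the data, gave 0, 4 and 0 calls. Depth limits Ciita, H2-DMb2 and the control values of H2-Aa and H2-Eb1, which rest on at most 33 reads each.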
